A study of Mus musculus with 12 samples.

Results

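The kidneys of mice that lost Fh1 in the renal tubules were compared with control kidneys on 8 of the 12 arrays of the study, 4 labelled Fh1 KO (Fh1-/-) and 4 labelled Control, and all 23863 probes of the deposited table were described. The arrays were selected by the genotype in their labels and by no measured value. Mice were C57BL/6 and aged 15 weeks, and each array held RNA from 1 sample. Fh1-/- mice carried floxed Fh1 alleles and Ksp-Cre, a Cre recombinase driven by the promoter of Cdh16 (kidney-specific cadherin), and the controls were littermates that kept Fh1, either because they lacked the Cre or because they had it beside a wild-type allele. Which of these each control array held is not given in the labels, so the presence of Cre may also differ between the groups, and no agent was given. Deletion takes place in tubules, and by the study's staining of older mice the interstitium and some tubules of such kidneys kept the protein. The labels call the tissue cysts on the control arrays as well, whereas the study describes kidneys. A further group of 4 arrays, in which Hif1a was deleted together with Fh1, entered the fit for its spread and is not described here.

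Fh1 encodes fumarate hydratase, the enzyme of the tricarboxylic acid cycle that turns fumarate into malate. Cells without it accumulate fumarate, which inhibits dioxygenases such as the prolyl hydroxylases that mark Hif for destruction and which binds to cysteines of proteins, Keap1 among them. In humans inherited mutations of the gene predispose to renal cancer, and in mice its loss in the tubule leads to cysts. The tubule is a chain of segments, each with its own transporters. The proximal tubule recovers glucose, amino acids, phosphate and proteins. The thick limb and the distal convoluted tubule recover salt, magnesium and calcium, and the collecting duct recovers water under the control of vasopressin.

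Signals are given on the log2 scale, so that a difference of 1 is a 2-fold change, and each gene was represented by its brightest probe. The arrays agreed closely in overall level, with deposited medians of 9.32 to 9.35 in control and 9.37 to 9.43 in Fh1-/- kidneys, and a shift of at most 0.04 brought them to a common 75th percentile. Replicates 1 and 2 of both groups had a higher dim end (1st percentile from 7.46 to just under 7.5) than replicates 3 and 4 (7.35 to 7.39), so the arrays fell into 2 sets that each held both groups. The labels name no sex, and Xist, an RNA of the inactive X chromosome, was bright on control replicate 4 (13.28) and on Fh1-/- replicates 1 and 3 (12.11 and 13.49), and at 7.43 or below on the other 5. Fh1 itself stood at 14.23, 14.28, 14.25 and 14.26 on control replicates 1 to 4 and at 14.05, 14.24, 13.98 and 14.19 on Fh1-/- replicates 1 to 4, a difference of -0.14 (SE 0.10, adjusted p 0.45) with overlap between the groups. Under quantile normalization the difference was -5.38e-05. A second, dimmer Fh1 probe differed by -0.24 (adjusted p 0.23), also with overlap. Whether either probe lies in the deleted part was not determined, so these values do not check the labels.

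Because whole kidneys were measured, fewer cells of a type and less RNA per cell cannot be told apart, and marker genes were therefore read first, at an adjusted p under 0.05, which 3.9% of all genes passed as higher and 2.26% as lower. Of 9 macrophage markers 5 rose and 0 fell, and their summed linear signal was 15629 to 21981 in control and 29880 to 46323 in Fh1-/- kidneys. Lyz2, the lysozyme of macrophages, stood at 11.36, 11.26, 10.84 and 11.50 on control and 12.54, 12.42, 12.76 and 12.12 on Fh1-/- arrays. Csf1r, the receptor that defines the lineage, differed by 0.04 and did not pass (adjusted p 0.88). Of 8 fibroblast markers 3 rose (Col3a1, Col1a1 and Dcn) and 0 fell, with sums of 13243 to 23174 and of 24592 to 33455. The 11 proximal tubule markers were all below 0, 3 of them past the test (Slc5a2, Slc5a12 and Aqp1), with sums of 405123 to 509321 in control and 284433 to 364330 in Fh1-/- kidneys. Their median of -0.47 was -0.22 under quantile normalization. The other probes of Slc5a12 and Aqp1 did not pass. Of 6 thick limb markers 3 fell (Egf, Umod and Cldn10), while Slc12a1, the cotransporter that defines this segment, differed by -0.10 (adjusted p 0.68). Thick limb sums were 215414 to 260665 in control and 140942 to 158540 in Fh1-/- kidneys. The median of these markers, -0.34, was -0.06 under quantile normalization. Of 4 markers of the distal convoluted tubule 3 fell, with sums of 55560.5 to 66604 in control and 22991 to 36156 in Fh1-/- kidneys, and of 7 of principal cells 2 rose and 1 fell. Principal cell sums were 27107 to 31748 in control and 36954 to 49076 in Fh1-/- kidneys. With 1 array left out, the fibroblast count went down to 1 (without Fh1-/- replicate 3 or control replicate 1), since Col3a1 passed in 8 of the 8 fits, Col1a1 in 6 and Dcn in 4. The proximal tubule count ranged from 1 (without Fh1-/- replicate 1 or 3 or control replicate 1 or 4) to 4 (without control replicate 2), with Slc5a2 passing in 8 fits, Slc5a12 in 3 and Aqp1 in 1. The distal convoluted tubule count went down to 1 without Fh1-/- replicate 1 or control replicate 1. Principal cell markers held 1 rise without Fh1-/- replicate 1, 2 or 4 or control replicate 1 or 2 and lost their fall without Fh1-/- replicate 1 or 3 or control replicate 2, 3 or 4. Markers of podocytes, smooth muscle, lymphocytes, neutrophils, fat and urothelium gave 0 calls, among 28 measured genes. Lymphocyte sums were nonetheless separate, at 1505 to 1795 in control and 1887 to 2373 in Fh1-/- kidneys. Defining markers of the tubule were bright on every array, with Slc34a1 at 16.36, 15.95, 16.48 and 16.52 on control and 15.66, 15.73, 15.95 and 16.04 on Fh1-/- arrays. Where these marker sums move with a result below, their part in it was not tested.

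In all, 157 of 12344 genes (1.27%) were higher and 36 (0.292%) lower in Fh1-/- kidneys when both a 2-fold difference and an adjusted p under 0.05 were required (limma's moderated test, with Benjamini-Hochberg adjustment across every probe). Counted by probes, 220 of 23863 (0.922%) were higher and 56 (0.235%) lower, and without the fold minimum 726 (3.04%) and 461 (1.93%). Without the fold minimum 482 genes (3.9%) were higher and 279 (2.26%) lower, 6.16% in either direction, and these shares are the background against which the lists below are read. The share called was 6.12% for cytosolic ribosomal proteins, 6.67% for Wnt genes and 4.76% for ribosome biogenesis. It was 4.44% for chromatin genes and 4.35% for both integrins and growth factors. Polyamine genes reached 4%, and Bcl2 family and nuclear receptor genes 3.03%. These shares are near or below that of all genes, so calls in these lists are read only as single genes. Over all genes the median difference was -0.03. All 4 Fh1-/- arrays lay above all 4 control arrays in 997 genes (8.08%) and below them in 1004 (8.13%). Of the 157 genes higher 152 (1.23% of all genes) were free of overlap, and of the 36 lower 32 (0.259%) were. Rises were larger than falls, up to 4.98 on the log2 scale against a lowest value of -3.05 among the calls. For a gene whose 2 groups do not overlap the exact permutation test over the 70 arrangements gives its smallest two-sided p of 0.029.

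**Figure D1:**
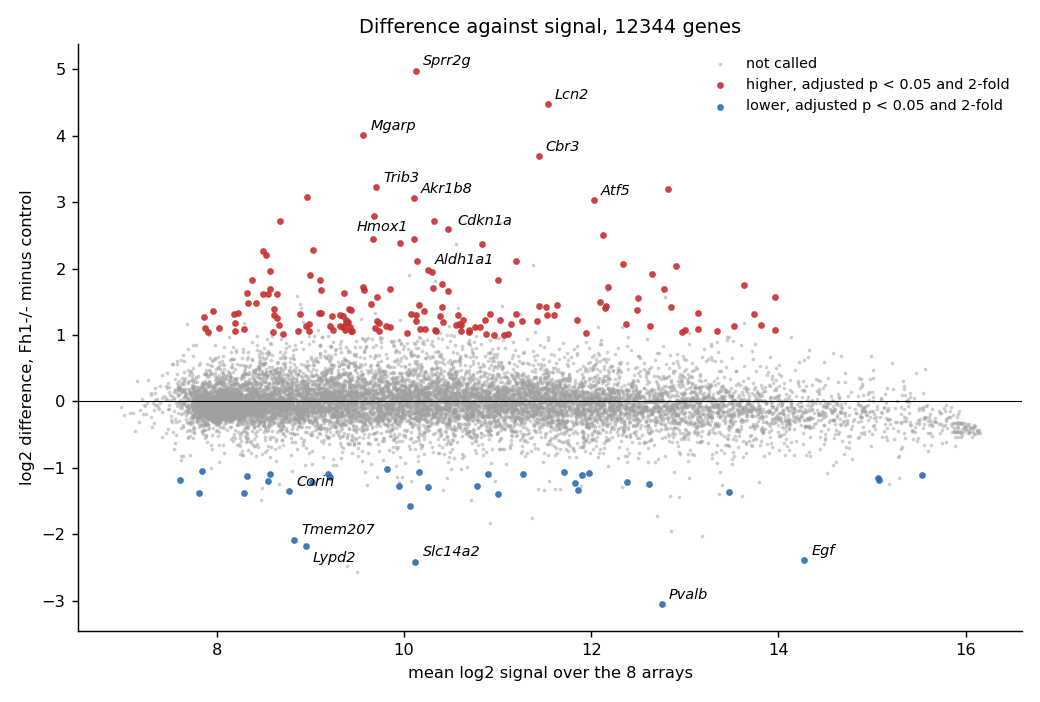
The log2 difference between Fh1-/- and control kidneys (vertical axis) is plotted against the mean log2 signal over the 8 arrays (horizontal axis), 1 point per gene, with genes past an adjusted p of 0.05 and a fold of 2 in red (157 higher) and blue (36 lower). The largest rises, led by Sprr2g at 4.98, are farther from 0 than the largest falls, led by Pvalb at -3.05.

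All 193 of these genes kept their direction within replicates 1 and 2 and within replicates 3 and 4, and 130 differed by at least 1 in both sets. For the 152 higher and 32 lower genes without overlap the shared direction follows from the lack of overlap. The rest were called on the same arrays, so the shared direction is no separate check. The rise was larger in replicates 3 and 4 for 57 of the 157 genes and the fall was larger there for 21 of the 36. Slc14a2 differed by -1.17 in the first set and -3.66 in the second, Lypd2 by -1.02 and -3.33, and Lcn2 by 4.68 and 4.27. These are differences of 2 arrays against 2, given without a test.

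**Figure D2:**
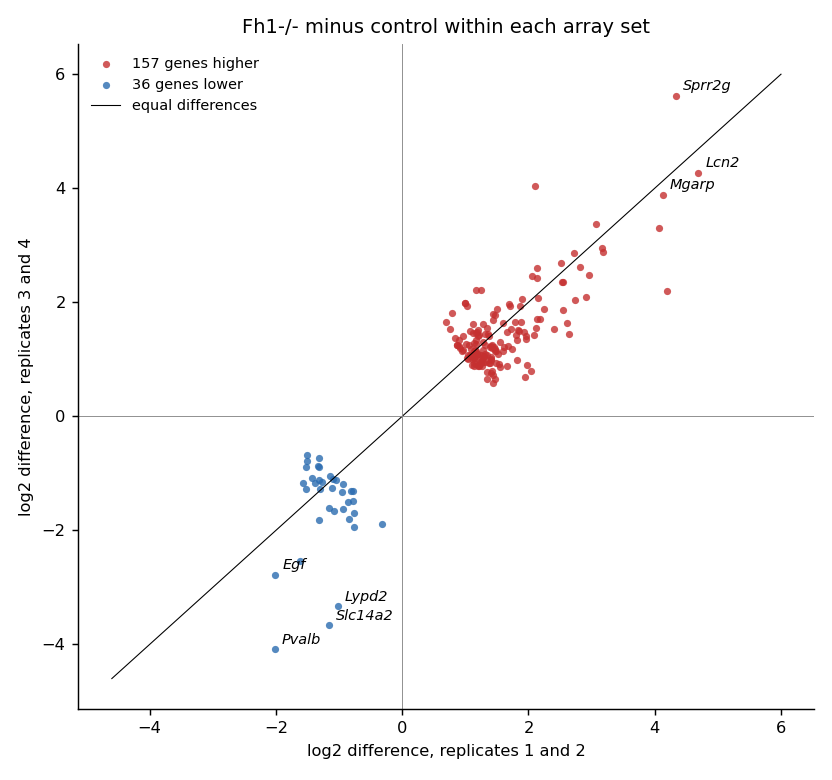
The log2 difference between Fh1-/- and control within replicates 3 and 4 (vertical axis) is plotted against that within replicates 1 and 2 (horizontal axis) for the 157 genes higher (red) and 36 lower (blue), with a line of equal differences. Every point lies in the quadrant of its own direction, which lack of overlap forces for most of these genes. Pvalb, Slc14a2, Lypd2 and Egf lie below the line.

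Consistency was ranked by the moderated t among genes past the 2-fold call without overlap, and the 12 leading genes all rose. First was Mgarp, a mitochondrial membrane protein involved in the movement of mitochondria. Mgarp stood at 7.83, 7.46, 7.38 and 7.57 on control replicates 1 to 4 and at 12.04, 11.49, 11.75 and 10.97 on Fh1-/- replicates 1 to 4, a difference of 4.01 (SE 0.23, adjusted p 5.26e-06). The control values lie at the dim end of the arrays, where 10.9 to 15.3% of probes are below 8, and no detection p could be tied to these arrays, so the fold of 16.1 is a ratio of signals and not of amounts. Aldh1l2, the mitochondrial formyltetrahydrofolate dehydrogenase, had the tightest Fh1-/- values of the 3 leading genes, 11.19, 11.002, 11.21 and 10.89 against 8.53, 8.23, 7.92 and 8.46 in control (2.79, SE 0.17). Akr1b8, an aldose reductase of the mouse, stood at 8.73, 8.57, 8.54 and 8.47 in control and 12.09, 11.55, 11.69 and 11.20 in Fh1-/- kidneys, 8.33-fold higher. For each of these genes the lowest Fh1-/- array was more than 2 log2 units above the highest control array.

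Atf5, a transcription factor of the stress response to amino acid shortage and to mitochondrial faults, went from 10.37, 10.22, 10.54 and 10.91 to 13.82, 13.12, 13.51 and 13.72 (3.03, SE 0.20, adjusted p 9.10e-06). Trib3, a pseudokinase downstream of the same response, went from 8.30, 8.17, 7.66 and 8.24 to 11.59, 11.03, 11.30 and 11.34 (3.22). The spread was small beside the distance in both. Cdkn1a, the cell cycle inhibitor p21, stood at 8.98, 9.12, 9.03 and 9.55 in control and 12.03, 11.10, 11.999 and 11.96 in Fh1-/- kidneys (2.60, adjusted p 3.79e-05), with replicate 2 lowest. Lcn2, a lipocalin that binds siderophores and is released by injured tubules, stood at 9.35, 8.76, 8.96 and 10.11 against 14.19, 13.29, 14.42 and 13.20, 22.3-fold higher. Its control value was highest on replicate 4, still more than 3 units below the lowest Fh1-/- array.

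**Figure D3:**
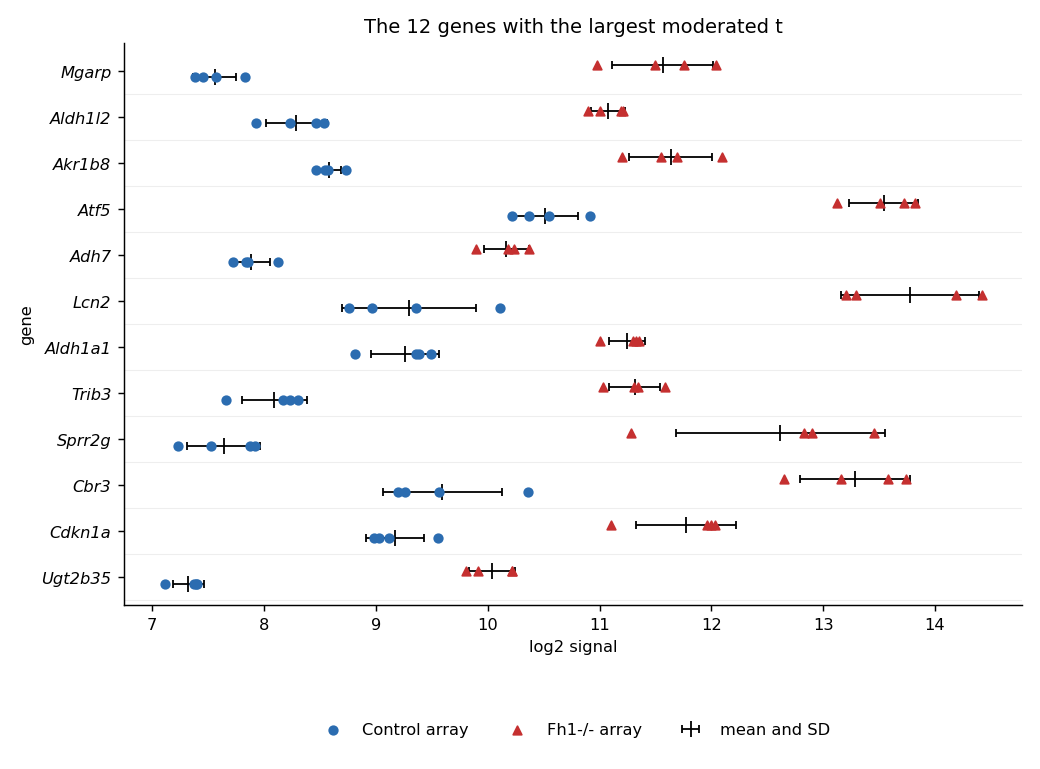
The log2 signal (horizontal axis) of the 12 genes with the largest moderated t (rows) is shown on each control (circles) and Fh1-/- array (triangles), with the mean and SD of each group of 4. Only genes without overlap were ranked, so the groups are separate in every row by selection. Mgarp, Sprr2g and Ugt2b35 lie near the dim end on the control arrays.

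The largest rise was that of Sprr2g, of the small proline-rich family that builds the envelope of cornified cells, from 7.92, 7.52, 7.23 and 7.87 to 12.83, 11.28, 13.45 and 12.90 (4.98, SE 0.37, adjusted p 2.14e-05). Sprr2f, a close copy, went from 7.74, 7.50, 7.12 and 7.33 to 10.51, 8.92, 11.92 and 10.63, and Sprr1a differed by 2.11. Since members of the Sprr2 family are much alike in sequence, signal at one probe can come from another member. Enzymes that conjugate and reduce foreign compounds followed. Cbr3, a carbonyl reductase, stood at 9.56, 9.20, 9.26 and 10.36 in control and 13.74, 13.16, 13.58 and 12.65 in Fh1-/- kidneys, with control replicate 4 highest of its group. Ugt2b35, a glucuronosyltransferase, went from 7.39, 7.11, 7.40 and 7.38 to 10.22, 9.91, 10.21 and 9.81 (2.72), and Ugt1a6b differed by 2.72 (adjusted p 0.0016). The Ugt1a genes share most of their exons, so the member behind the second value is uncertain. Gsta4, a glutathione transferase for lipid aldehydes, stood at 10.44, 10.56, 10.27 and 12.24 against 14.07, 12.76, 13.77 and 12.93, with control replicate 4 nearest to the Fh1-/- arrays.

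Among the remaining largest rises, Hmox1 (haem oxygenase) went from 8.20, 9.14, 8.98 and 9.22 to 11.86, 10.58, 11.12 and 11.79 and Slc7a11, the cystine importer, from 7.31, 7.44, 7.49 and 7.46 to 10.10, 9.75, 9.41 and 9.26. The groups were separate in both, as the ranking required. The other Slc7a11 probes had control means of 8.01, 7.76 and 7.39. They differed by -0.26, 0.43 and 0.17 and did not pass (adjusted p 0.51, 0.14 and 0.52). Chac1, which degrades glutathione, differed by 2.44 (SE 0.34), Ddit3 (CHOP) by 2.37 (SE 0.22), Asns (asparagine synthetase) by 2.12 (SE 0.41) and Nupr1, a stress-induced nuclear protein, by 2.04 (SE 0.33). Fbxo2, an F-box protein that recognises sugar chains, stood at 8.60, 8.57, 8.82 and 9.08 in control and 11.88, 10.75, 11.02 and 10.97 in Fh1-/- kidneys. Sftpd, surfactant protein D of the innate defence, stood at 7.54, 7.45, 7.14 and 7.34 against 9.72, 9.38, 10.65 and 8.75. Abcc4, an exporter of organic anions, differed by 2.06, with adjusted p 5.43e-04. All 25 of the largest rises passed the test in each of the 8 fits that left out 1 array.

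Promoters of the 12 most consistent genes were read, and 10 of these genes have an entry in the RefSeq promoter table (GRCm38.p6, a window of 300 bases around each annotated start). Each was searched on both strands for TGACNNNGC, the core of the antioxidant response element bound by Nrf2, for TGATGNAA, the C/EBP-ATF response element bound by Atf4, and for ACGTG, the core of the hypoxia response element bound by Hif. Of the 10 genes 4 held a match, and these 4 are shown 5′ to 3′ on the strand of the gene, with the match in capitals and its position counted from the annotated start. A match describes the letters in this window and is not a binding site.
Mgarp, chr3:51396498-51396797, minus strand, ACGTG on the opposite strand at -219: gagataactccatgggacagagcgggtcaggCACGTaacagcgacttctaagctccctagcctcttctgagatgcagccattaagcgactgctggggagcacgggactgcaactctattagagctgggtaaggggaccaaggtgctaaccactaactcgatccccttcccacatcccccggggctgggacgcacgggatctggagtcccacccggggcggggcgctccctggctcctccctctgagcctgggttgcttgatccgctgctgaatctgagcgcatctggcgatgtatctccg
Trib3, chr2:152344011-152344310, minus strand, TGATGNAA on the opposite strand at 15: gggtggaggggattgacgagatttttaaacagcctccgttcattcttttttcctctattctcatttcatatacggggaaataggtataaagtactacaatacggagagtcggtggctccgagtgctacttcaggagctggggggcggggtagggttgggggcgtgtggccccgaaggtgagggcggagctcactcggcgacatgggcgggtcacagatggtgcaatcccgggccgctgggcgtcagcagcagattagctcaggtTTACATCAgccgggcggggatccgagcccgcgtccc
Ugt2b35, chr5:87000610-87000909, plus strand, ACGTG at -182: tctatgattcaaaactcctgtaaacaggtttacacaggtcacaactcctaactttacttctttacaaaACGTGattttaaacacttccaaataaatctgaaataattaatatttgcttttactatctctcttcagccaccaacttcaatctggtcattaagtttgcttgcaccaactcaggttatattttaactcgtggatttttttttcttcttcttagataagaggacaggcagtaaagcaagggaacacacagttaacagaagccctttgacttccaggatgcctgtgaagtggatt
Cdkn1a, chr17:29093519-29093818, plus strand, the second annotated start, TGACNNNGC on the opposite strand at 28: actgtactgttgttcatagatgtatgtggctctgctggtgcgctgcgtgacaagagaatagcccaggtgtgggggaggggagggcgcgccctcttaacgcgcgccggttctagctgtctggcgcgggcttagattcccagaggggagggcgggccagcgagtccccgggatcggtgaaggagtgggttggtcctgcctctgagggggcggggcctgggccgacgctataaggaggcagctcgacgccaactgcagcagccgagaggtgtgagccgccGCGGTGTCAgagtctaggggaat
Across all 9957 tested genes with a promoter, TGACNNNGC was found in 16.5%, TGATGNAA in 2.95% and ACGTG in 28.2%. Among the 125 such genes that were higher by at least 2-fold the shares were 16, 5.6 and 25.6%, and among the 25 that were lower they were 0, 0 and 32.0%. Among the 10 consistent genes with a promoter they were 10, 10 and 20%. The share of all tested genes with any of the 3 motifs was not counted, so the 4 genes with a match have no background beside them. The 3 motifs do not overlap each other in the 4 sequences shown.

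The falls were led by genes of the distal nephron. Pvalb, the calcium-binding parvalbumin of the early distal convoluted tubule, stood at 14.03, 14.28, 14.33 and 14.47 on control and 11.98, 12.30, 10.26 and 10.37 on Fh1-/- arrays (-3.05, SE 0.44, adjusted p 0.0024). The Fh1-/- arrays fell into a lower pair, replicates 3 and 4, and a higher pair, both below every control. Egf, the growth factor released by the thick limb and distal convoluted tubule, went from 15.56, 15.59, 15.23 and 15.51 to 13.09, 14.04, 12.59 and 12.59 (-2.39, SE 0.32). Slc14a2, the urea transporter of the inner medulla, stood at 10.73, 10.92, 11.96 and 11.71 against 9.81, 9.50, 8.37 and 7.97 (-2.41, adjusted p 0.046). It passed in 0 of the 8 fits that left out 1 array (differences of -2.71 to -2.10, adjusted p up to 0.13). Slc4a1, the anion exchanger of red cells and of intercalated cells that secrete acid, differed by -1.22 (adjusted p 0.0027), and a second intercalated cell gene, the proton pump subunit Atp6v1g3, rose by 0.87 (adjusted p 0.012). Summed red cell markers were 46683 to 90545 in control and 15744 to 47539 in Fh1-/- kidneys. Summed intercalated cell markers were 13416 to 15933 in control and 9757 to 11483 in Fh1-/- kidneys, and both lists include Slc4a1.

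Lypd2, Tmem207 and Shd, whose roles in the kidney are little known, fell by 2.18, 2.09 and 1.57. Lypd2 stood at 9.36, 9.53, 10.81 and 10.45 in control and 8.26, 8.58, 7.58 and 7.03 in Fh1-/- kidneys, so that its fall was larger in replicates 3 and 4. Corin, the protease that activates atrial natriuretic peptide, went from 8.75, 9.39, 9.97 and 9.67 to 8.44, 8.18, 7.83 and 7.93. Gcgr, the glucagon receptor, went from 10.33, 10.56, 10.57 and 10.90 to 9.38, 9.63, 9.32 and 8.91 (-1.28, SE 0.17, adjusted p 0.0016). Slc5a2, the glucose cotransporter of the early proximal tubule, stood at 13.13, 13.09, 12.60 and 13.15 against 11.37, 12.22, 11.63 and 11.87 (-1.22), with 1 control array, replicate 3, lower than the rest. Cd55, which protects cells from complement, differed by -1.29, Tmem86a, a lysoplasmalogenase, by -1.33, and Aspdh, named for its aspartate dehydrogenase domain, by -1.25. Ralyl, Hhatl, Slc16a14, Ldc1 and Rhox6 fell by 1.18 to 1.37. Lypd2, Tmem207, Shd, Corin, Gcgr, Slc5a2 and Cd55 passed in 8 of the 8 fits that left out 1 array, Tmem86a in 7 and Aspdh in 5. The losses came without Fh1-/- replicate 1 or 3 or control replicate 1 (adjusted p up to 0.063).

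**Figure D4:**
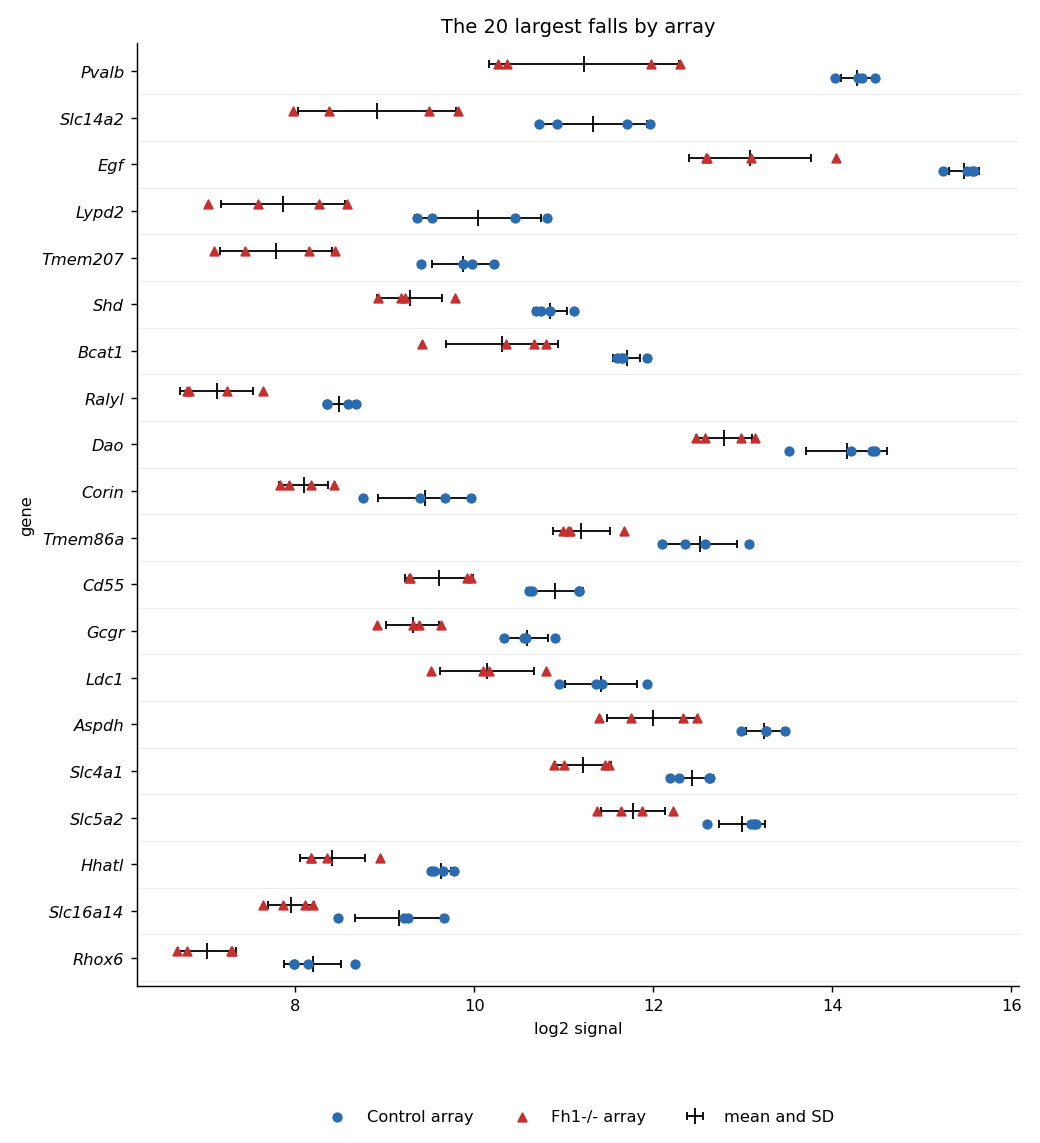
The log2 signal (horizontal axis) of the 20 largest falls (rows, largest first) is shown on each control (circles) and Fh1-/- array (triangles), with the mean and SD of each group of 4. Only genes without overlap were ranked, so the groups are separate in every row by selection. Pvalb and Slc14a2 have the widest spread among Fh1-/- arrays.

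Mineral handling had the highest share of calls of the function lists. Of 27 measured genes of vitamin D, calcium, magnesium and phosphate handling 2 rose and 7 fell, 33.3% against 6.16% of all genes, with a median of -0.35 that was -0.17 under quantile normalization. Slc34a3, the phosphate cotransporter NaPi-IIc of the proximal tubule, stood at 11.81, 11.66, 11.57 and 12.23 in control and 10.16, 11.10, 10.78 and 10.84 in Fh1-/- kidneys (-1.10, SE 0.19, adjusted p 0.0063). Pth1r, the receptor for parathyroid hormone, differed by -0.82 (adjusted p 0.046), and Kl (Klotho), the co-receptor through which FGF23 acts, stood at 14.89, 14.73, 14.83 and 14.38 against 13.54, 14.07, 13.67 and 14.29 (-0.81, adjusted p 0.026). Every Fh1-/- array lay below every control array in Kl. The lowest Kl values of each group were on the arrays with bright Xist, control replicate 4 and Fh1-/- replicates 1 and 3. Their part in Kl was not tested. With Xist as a covariate the list held 2 rises and 7 falls, with a median of -0.31. Slc8a1, the sodium-calcium exchanger of the distal tubule, differed by -0.97, Trpm6, the magnesium channel there, by -0.63, Cnnm2, a magnesium transporter, by -0.45, and Amn, the partner of cubilin in protein uptake, by -0.77. The other probes of Slc8a1 (-0.29 and -0.26) and of Trpm6 (-0.41 and -0.41) did not pass (adjusted p 0.11 to 0.55). Those of Pth1r differed by -0.55 (adjusted p 0.12) and -0.77 (adjusted p 0.012).

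The 2 rises of this list were the stanniocalcins, secreted glycoproteins named for a calcium-lowering hormone of fish. Stc1 stood at 9.41, 9.63, 9.13 and 9.90 on control and 10.47, 10.63, 10.73 and 10.33 on Fh1-/- arrays (1.02, adjusted p 0.0089), and Stc2 differed by 0.99 (adjusted p 0.023). Vdr, the vitamin D receptor, stood at 13.30, 12.95, 13.22 and 13.07 against 12.22, 12.41, 12.77 and 12.73, without overlap but short of the threshold (-0.60, adjusted p 0.076). Slc34a1, the main phosphate cotransporter, differed by -0.49 (adjusted p 0.068). Of the 8 fits without 1 array, Slc34a3 and Stc1 passed in 8, Trpm6 in 6, Stc2 in 4, Kl and Amn in 3, Pth1r and Cnnm2 in 2 and Slc8a1 in 1. Each of the 8 arrays ended at least 1 of these calls when left out (adjusted p up to 0.14). Over these fits the list held 1 to 6 falls, with 1 without Fh1-/- replicate 1 or control replicate 1. The summed markers of the proximal tubule and of the distal convoluted tubule given above were both lower on the same arrays, and their part was not tested. Those sums include Slc34a1, Trpm6 and Slc8a1, which are also in this list, so they are not a separate observation.

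Water channels moved in opposite directions. Aqp2, the vasopressin-regulated channel of principal cells, rose from 12.29, 12.20, 12.87 and 12.51 to 13.98, 13.37, 13.31 and 13.51 (1.08, SE 0.19, adjusted p 0.0068), and Aqp3, the basolateral channel of the same cells, differed by 0.71 (adjusted p 0.032). Aqp4, another basolateral channel of principal cells, stood at 11.81, 12.17, 12.45 and 12.55 against 10.90, 11.20, 11.29 and 11.33 (-1.07, adjusted p 0.029). Aqp1, of the proximal tubule and thin limb, differed by -0.36 and Aqp11, an intracellular aquaporin, by -0.61. The other Aqp1 probes, with control means of 15.05 and 13.92, differed by -0.13 and 0.01 and did not pass (adjusted p 0.70 and 0.98). Ano1, a calcium-activated chloride channel, rose by 0.72 (adjusted p 0.011). In all, of 31 potassium, chloride and water channels 3 rose and 5 fell, with a median of -0.12 that was -0.05 under quantile normalization. Aqp2 and Ano1 passed in 8 of the 8 fits that left out 1 array, Aqp4 and Aqp11 in 3, Aqp3 in 2 and Aqp1 in 1. Every array, when left out, ended at least 1 call (adjusted p up to 0.11). In these fits the list held 0 to 3 falls, with 0 without Fh1-/- replicate 1. Summed principal cell markers, which include Aqp2, Aqp3 and Aqp4, were higher on the Fh1-/- arrays, and their part was not tested. Of the 28 sodium pumps, exchangers and cotransporters 2 rose and 1 fell, led by Stk39, the kinase that activates salt cotransporters (0.94, adjusted p 5.43e-04), whose upstream kinase Wnk1 differed by -0.47. Wnk1, the 1 fall, passed in 3 of the 8 fits without 1 array (adjusted p up to 0.11), being lost without Fh1-/- replicate 1, 3 or 4 or control replicate 1 or 2, and the rises numbered 1 to 3, with 1 without Fh1-/- replicate 1 or 3 or control replicate 1, 2 or 3.

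Of 46 genes of amino acid breakdown 6 fell and 1 rose, with a median of -0.29. Dao, the peroxisomal oxidase of D-amino acids in the proximal tubule, stood at 14.48, 14.21, 14.44 and 13.51 in control and 12.58, 12.98, 12.48 and 13.13 in Fh1-/- kidneys (-1.37, adjusted p 0.023), while its next-brightest probe differed by 0.76 and did not pass. Bcat1, the cytosolic branched-chain aminotransferase, differed by -1.39, Mccc1, which takes part in leucine breakdown, by -0.67, and Hgd, the homogentisate oxygenase of tyrosine breakdown, by -0.60. The rise was Aldh18a1, which makes the precursor of proline and ornithine and so works in synthesis, from 8.32, 8.27, 8.36 and 8.40 to 9.49, 8.83, 9.76 and 9.50 (1.06, adjusted p 0.0087). With 1 array left out at a time, Mccc1 and Aldh18a1 passed in 8 of 8 fits, Hgd in 4 and Dao and Bcat1 in 3. Calls were lost without Fh1-/- replicate 1 or 3 or control replicate 1, 2 or 3 (adjusted p up to 0.082). The list held 2 to 9 falls over these fits, with 2 without Fh1-/- replicate 1 or 3 or control replicate 1 or 3 and 9 without control replicate 4.

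Among 21 genes of gluconeogenesis, fructose and glycogen 2 rose and 2 fell, with a median of -0.01 that turned to 0.13 under quantile normalization and to 0.03 without the shift. Fbp1, the fructose bisphosphatase of gluconeogenesis, differed by -0.52 (adjusted p 0.029) and Galm, galactose mutarotase, by -0.48. Aldoc, an aldolase of brain and other tissues, went from 10.31, 10.60, 10.63 and 10.88 to 12.15, 11.65, 11.53 and 11.14 (1.01, adjusted p 0.013), and Pygb, a glycogen phosphorylase, differed by 0.98. Aldoc passed in 7 of the 8 fits that left out 1 array, Galm in 6, Fbp1 in 4 and Pygb in 3. The losses came without Fh1-/- replicate 1 or 3 or control replicate 1, 2 or 3 (adjusted p up to 0.10). Over these fits 0 to 3 members rose, with 0 without control replicate 1, and 0 to 3 fell, with 0 without Fh1-/- replicate 1 or 3. Of 25 genes of polyamine and pyrimidine metabolism 0 rose and 1 fell, Odc1, ornithine decarboxylase (-1.15, adjusted p 0.035, with overlap), which passed in 2 of the 8 fits.

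Of 34 genes of retinoid metabolism 3 rose, all of them alcohol or aldehyde dehydrogenases. Adh7, an alcohol dehydrogenase that oxidises retinol, stood at 8.13, 7.85, 7.84 and 7.72 on control and 10.36, 9.89, 10.18 and 10.23 on Fh1-/- arrays (2.28, SE 0.15, adjusted p 1.08e-05). Aldh1a1, the retinaldehyde dehydrogenase of the next step, went from 9.35, 9.49, 8.81 and 9.38 to 11.30, 11.35, 11.32 and 11.01 (1.98, SE 0.14), and Aldh1a7, a close copy of it in the mouse, differed by 1.37 (adjusted p 0.0042). Aldh1a1 and Aldh1a7 both act on aldehydes other than retinaldehyde, and given their likeness a probe of one can take signal of the other. The list's median was -0.12, and 0 of its members fell. Adh7, Aldh1a1 and Aldh1a7 passed in each of the 8 fits that left out 1 array. Without control replicate 4 the list held 5 rises and 1 fall.

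Of 40 actins, tropomyosins, myosins and actin-binding proteins 7 rose and 0 fell, with a median of 0.24. Tpm1, a tropomyosin, stood at 12.87, 12.82, 13.02 and 13.08 in control and 13.72, 13.30, 13.81 and 13.65 in Fh1-/- kidneys (0.67, adjusted p 0.0074). Arpc1b, a subunit of the Arp2/3 complex, differed by 0.90, Flna (filamin A) by 0.76 and Cfl1 (cofilin) by 0.74. Vcl (vinculin) was the 1 call among 23 integrins and focal adhesion proteins (0.50, adjusted p 0.0074), and of 19 tubulins and microtubule proteins 2 rose, Tubb5 (0.61, with a second probe at -0.14) and Tuba1a (0.47). Tpm1 and Vcl passed in 8 of the 8 fits that left out 1 array, Tuba1a in 5, Tubb5 in 3, Arpc1b and Cfl1 in 2 and Flna in 1. At least 1 call ended without Fh1-/- replicate 1, 3 or 4 or control replicate 1, 2, 3 or 4 (adjusted p up to 0.14). The actin list held 1 to 8 rises over these fits, with 1 without Fh1-/- replicate 1 or control replicate 1, 2 or 3, and the integrin list held 3 without Fh1-/- replicate 2. Summed fibroblast and macrophage markers were higher on the same arrays, and their part was not tested.

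Of 21 epithelial surface and progenitor markers 4 rose and 0 fell, with a median of 0.46. Plaur, the urokinase receptor, went from 8.24, 8.32, 8.47 and 8.61 to 9.75, 8.94, 9.68 and 9.91 (1.16, adjusted p 0.0076), Sox4, a transcription factor of progenitors, differed by 0.95 (adjusted p 0.0053), Cd24a by 0.78 and Cd44 by 0.89. Of 25 cadherins, desmosome and gap junction genes 3 rose and 2 fell. Nectin2, an adhesion molecule of epithelia, stood at 10.44, 10.56, 10.47 and 10.69 against 11.63, 11.33, 11.76 and 11.23 (0.95, adjusted p 0.0018), and Dsg2, a desmosomal cadherin, differed by 1.12. Other Dsg2 probes differed by 0.43 (adjusted p 0.18), -0.24 (adjusted p 0.73) and 0.44 (adjusted p 0.027). Cdh16, whose promoter drives the Cre used here, stood at 15.95, 15.69, 16.04 and 16.18 in control and 15.39, 15.47, 15.64 and 15.61 in Fh1-/- kidneys (-0.44, adjusted p 0.046). With 1 array left out at a time, Plaur, Sox4, Cd24a and Nectin2 passed in 8 of 8 fits, Cd44 in 3, Dsg2 in 2 and Cdh16 in 1. Each of the 8 arrays ended at least 1 of these calls when left out (adjusted p up to 0.14). The surface and progenitor list held 3 to 8 rises over these fits, and without control replicate 4 it held 8 rises and 1 fall.

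Guidance molecules, the ligands and receptors first known from growing axons, rose in 7 of 31 cases (22.6%) and fell in 0, with a median of 0.21. Sema7a, a membrane-anchored semaphorin, stood at 8.65, 8.84, 8.66 and 8.65 on control and 10.16, 9.50, 9.80 and 9.64 on Fh1-/- arrays (1.07, adjusted p 0.0021). Sema3f and Sema3c, secreted semaphorins, differed by 0.65 (adjusted p 0.0051) and 0.88, Slit3, a ligand of Robo receptors, by 0.82, and Efna5, an ephrin, by 0.74. The receptors Plxnd1 (0.64, adjusted p 0.022) and Plxna2 (0.52, adjusted p 0.037) completed the calls. Sema7a and Sema3f passed in 8 of the 8 fits that left out 1 array, Slit3 in 5, Sema3c and Plxnd1 in 4 and Efna5 and Plxna2 in 2. Every array, when left out, ended at least 1 call (adjusted p up to 0.13). Over these fits 2 to 7 members rose, with 2 without Fh1-/- replicate 1 or 3.

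Of 20 Notch pathway genes 3 rose and 0 fell. Notch3, the receptor of mural and some epithelial cells, stood at 8.80, 8.65, 8.76 and 8.55 against 9.67, 9.34, 9.79 and 9.29 (0.83, adjusted p 0.0077), Notch1 differed by 0.69 and the feedback gene Nrarp by 0.65. Of 26 BMP and GDF genes 3 rose and 1 fell. Bmp3, a ligand that opposes other BMPs, went from 7.85, 8.10, 7.81 and 7.88 to 9.68, 8.97, 8.78 and 9.80 (1.40, adjusted p 0.0033), and Grem1 (gremlin), which binds and blocks BMPs, from 7.67, 7.56, 7.86 and 7.62 to 9.13, 8.17, 9.17 and 10.17 (1.48, adjusted p 0.018). Chordin (Chrd), another blocker, differed by -0.59. Of 30 Wnt genes 1 rose and 1 fell, the ligand Wnt5a (0.74, adjusted p 0.010) and the secreted antagonist Sfrp1 (-0.78, adjusted p 0.015). Of 23 fibroblast and other growth factors and receptors 1 rose, the receptor tyrosine kinase Kit, from 9.80, 9.79, 10.22 and 10.03 to 11.14, 10.48, 11.22 and 10.98 (0.996), while 19 insulin-like growth factor genes gave 0 calls. Of the 8 fits without 1 array, Notch3, Bmp3, Wnt5a and Kit passed in 8, Chrd and Sfrp1 in 7, Grem1 in 5, Notch1 in 4 and Nrarp in 2. Without Fh1-/- replicate 1, 3 or 4 or control replicate 1, 2 or 3 at least 1 of these calls was lost (adjusted p up to 0.15).

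Among 28 MAP kinase feedback regulators and Ets factors 7 rose and 1 fell, with a median of 0.23. Rras, a Ras-related GTPase, went from 10.95, 10.93, 11.07 and 11.29 to 12.06, 11.82, 12.29 and 11.94 (0.97, adjusted p 9.84e-04). Elf3, an Ets factor of epithelia that responds to inflammation, stood at 9.46, 9.44, 10.001 and 9.60 against 11.15, 10.21, 11.12 and 10.38 (1.09, adjusted p 0.016), Mapk13, a stress-activated MAP kinase, differed by 0.74, and Elf4 by 0.65 with a second probe at -0.19. Etv1, the Ets factor that fell, stood at 11.63, 11.66, 11.65 and 10.87 in control and 9.64, 10.64, 10.19 and 10.96 in Fh1-/- kidneys (-1.09, adjusted p 0.032), with control replicate 4 below the other controls and below Fh1-/- replicate 4, so the groups overlapped. Rras passed in 8 of the 8 fits that left out 1 array, Elf3 and Elf4 in 5 and Mapk13 and Etv1 in 3. At least 1 call ended without Fh1-/- replicate 1 or 3 or control replicate 1, 2, 3 or 4 (adjusted p up to 0.10). Over these fits 1 to 7 members rose, with 1 without Fh1-/- replicate 3.

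Of 44 transcription factors of the kidney tubule 3 rose and 2 fell. Grhl2, which controls epithelial junction genes, stood at 9.06, 9.23, 9.34 and 9.14 on control and 10.37, 9.98, 10.24 and 9.95 on Fh1-/- arrays (0.94, adjusted p 0.0042). Irx5 differed by 0.94 and Gata3, a factor of the collecting duct, by 0.62, whereas Emx1 and Hoxa9 differed by -0.50 and -0.47. Of 33 nuclear receptors and coregulators 1 fell, Ppara, the receptor that controls fatty acid oxidation, from 8.89, 9.12, 9.03 and 8.90 to 8.20, 8.87, 8.23 and 8.31 (-0.58, adjusted p 0.041). With 1 array left out at a time, Grhl2 passed in 8 of 8 fits, Irx5 in 5 and Gata3, Emx1, Hoxa9 and Ppara in 2. Calls were lost without Fh1-/- replicate 1, 3 or 4 or control replicate 1, 2, 3 or 4 (adjusted p up to 0.13). The tubule factors held 1 to 5 rises over these fits, with 5 without Fh1-/- replicate 2. Of 45 histone and chromatin genes 1 rose and 1 fell, Uhrf1, which guides maintenance of DNA methylation in dividing cells (1.12, adjusted p 0.0010), and Sirt3, the mitochondrial deacetylase (-0.46, adjusted p 0.046). Sirt3 passed in 1 of the 8 fits, the one without Fh1-/- replicate 2 (adjusted p up to 0.14 in the others), Uhrf1 passed in 8, and without control replicate 4 the list held 4 rises.

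Of 28 genes of the interleukin 6 family and its targets 3 rose and 0 fell. Stat3, the transcription factor of this pathway, stood at 11.62, 11.79, 11.71 and 11.63 in control and 12.48, 12.29, 12.59 and 12.16 in Fh1-/- kidneys (0.69, adjusted p 0.0021). Il1rn, the antagonist of the interleukin 1 receptor, differed by 1.08 (adjusted p 0.0094) and Osmr, the oncostatin M receptor, by 0.84 (adjusted p 0.043). Of 28 TNF and NF-kappa B genes 3 rose and 0 fell, with a median of 0.25. Tnfrsf12a, the TWEAK receptor, went from 10.38, 10.25, 10.66 and 10.85 to 11.92, 11.04, 12.22 and 12.22 (1.31, adjusted p 0.012), the decoy receptor Tnfrsf22 differed by 1.20 (adjusted p 0.0051) and the feedback inhibitor Tnfaip3 by 0.54. Other Tnfrsf22 probes differed by 0.09 (adjusted p 0.83) and 0.48 (adjusted p 0.046). Stat3, Il1rn, Tnfrsf12a and Tnfrsf22 passed in 8 of the 8 fits that left out 1 array and Tnfaip3 and Osmr in 3. The losses came without Fh1-/- replicate 1, 3 or 4 or control replicate 1, 2 or 3 (adjusted p up to 0.13). Without control replicate 4 the TNF list also held 2 falls. Socs3 and Cebpb, targets of Stat3 and of inflammation, differed by 0.97 and 0.80 and did not pass (adjusted p 0.11 and 0.056).

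Of 25 coagulation and fibrinolysis genes 5 rose and 1 fell (24%). F13a1, the clot-stabilising transglutaminase that macrophages also make, stood at 7.78, 7.72, 7.43 and 7.28 against 9.46, 8.89, 8.51 and 8.71 (1.34, adjusted p 0.0068), and F2r, the thrombin receptor, at 13.05, 13.78, 13.38 and 13.49 against 14.59, 14.17, 14.71 and 14.51 (1.07, adjusted p 0.0021). Plaur, described above, also belongs here, Pros1 (protein S) differed by 0.73, and F5 (factor V) fell by 0.89. Serine protease and other protease inhibitors rose in 5 and fell in 1 of 28 cases, with a median of 0.46. Serpina3n, an acute phase inhibitor, stood at 7.92, 7.81, 7.23 and 7.92 in control and 8.98, 9.09, 10.33 and 9.27 in Fh1-/- kidneys (1.70, adjusted p 0.021), and Spink8, a Kazal-type inhibitor, differed by 0.92. Serping1, the inhibitor of the first complement component, differed by 0.70, and the member that fell was Wfdc15b, a WAP domain protein, from 15.46, 15.55, 15.67 and 15.99 to 14.80, 14.50, 14.42 and 14.23 (-1.18, adjusted p 0.0018). Of the 8 fits without 1 array, F13a1, F2r, F5 and Wfdc15b passed in 8, Spink8 in 6, Serpina3n in 5, Pros1 in 3 and Serping1 in 2. Without Fh1-/- replicate 1, 3 or 4 or control replicate 1, 2 or 3 at least 1 of these calls was lost (adjusted p up to 0.13). Over these fits 0 to 7 inhibitors rose, with 0 without Fh1-/- replicate 3 and 7 without control replicate 4, and 3 to 7 coagulation genes rose, with 3 without Fh1-/- replicate 3 or control replicate 1. Serpina1a, Serpina1b, Serpina1c and Serpina1d, near-identical copies that may share signal, differed by 1.12, 0.96, 1.13 and 1.03 and did not pass. The higher macrophage sums stand beside the rise of F13a1, and their part was not tested.

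Pla2g7, the lipoprotein-associated phospholipase that macrophages secrete, went from 9.53, 9.64, 8.90 and 10.05 to 11.70, 11.22, 11.39 and 10.86 (1.76, SE 0.23, adjusted p 0.0014), and of 27 eicosanoid genes Ptges, a prostaglandin E synthase, was the other rise (0.93, adjusted p 0.029) and Ptgr2 the 1 fall (-0.46). Apoc1, an apolipoprotein of liver and macrophages, went from 8.33, 9.03, 8.32 and 9.13 to 10.23, 9.62, 10.95 and 10.93 (1.73, adjusted p 0.0079). It led 3 rises and 0 falls among 23 apolipoproteins and lipid transporters, before Sort1 (sortilin, 0.65) and Scarb1, a receptor for high density lipoprotein (0.56). Apoe, its neighbour on the chromosome and also made by macrophages, differed by 1.13 and did not pass (adjusted p 0.19). Pla2g7 and Apoc1 passed in 8 of the 8 fits that left out 1 array, Sort1 in 3, Ptges and Ptgr2 in 2 and Scarb1 in 1. At least 1 call ended without Fh1-/- replicate 1, 3 or 4 or control replicate 1, 2, 3 or 4 (adjusted p up to 0.14). Of 41 genes of fatty acid synthesis, triglycerides and lipid droplets 0 passed in either direction at an adjusted p under 0.05.

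Of 35 secreted peptides, receptors and G protein regulators 3 rose and 1 fell. Aplnr, the apelin receptor of endothelium, stood at 8.71, 8.75, 8.82 and 8.83 on control and 10.21, 9.54, 10.49 and 9.74 on Fh1-/- arrays (1.22, adjusted p 0.0086), Ednrb, the endothelin B receptor, at 11.85, 12.11, 12.26 and 12.003 against 13.17, 13.16, 13.37 and 13.09 (1.14, adjusted p 1.02e-04), and P2ry14, a receptor for UDP-sugars, differed by 1.004 (adjusted p 0.0058). Edn1 and Adm, ligands of the endothelin and adrenomedullin receptors, differed by 0.77 and 0.80 and did not pass (adjusted p 0.064 and 0.053). Gprc5c, an orphan receptor of the tubule, differed by -0.73 (adjusted p 0.017). With 1 array left out at a time, Aplnr, Ednrb and P2ry14 passed in 8 of 8 fits and Gprc5c in 4. Calls were lost without Fh1-/- replicate 1 or 3 or control replicate 1 or 3 (adjusted p up to 0.064). Without Fh1-/- replicate 4 the list held 5 rises and 2 falls. Summed endothelial markers were 27692 to 34465 in control and 35497 to 44128 in Fh1-/- kidneys, with 1 of 8 past the test, Cdh5 (0.56, a call that held in 1 of the 8 fits, the one without Fh1-/- replicate 4, with an adjusted p up to 0.13 in the others), and Pecam1 at 0.91 (adjusted p 0.16).

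Lgals3 (galectin 3), made by macrophages and by injured tubules, stood at 13.07, 12.91, 13.07 and 13.65 in control and 15.16, 14.47, 14.76 and 14.62 in Fh1-/- kidneys (1.58, SE 0.19, adjusted p 7.24e-04). Of the other 35 mucins, galectins and glycosyltransferases 1 rose, St3gal1 (0.57), and 1 fell, St6galnac2 (-0.83), both sialyltransferases. Of 38 proteoglycan, heparan sulfate and hyaluronan genes 3 rose and 1 fell. Dcn (decorin) and Hspg2 (perlecan) differed by 0.85 and 0.71, the sulfotransferase Hs3st1 by 0.68, and Hs6st2, which adds sulfate to heparan chains, by -0.64 (adjusted p 0.0087). Lgals3 and Hs6st2 passed in 8 of the 8 fits that left out 1 array, Hspg2 and St6galnac2 in 6, Dcn in 4, St3gal1 in 3 and Hs3st1 in 2. The losses came without Fh1-/- replicate 1, 2 or 3 or control replicate 1, 2, 3 or 4 (adjusted p up to 0.13). The proteoglycan list held 0 to 5 rises, with 0 without Fh1-/- replicate 3 or control replicate 1 and 5 without control replicate 4. Fibroblast and macrophage sums were higher on the same arrays, and their part was not tested. The fibroblast sum includes Dcn.

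Of 36 lysosomal genes 2 rose and 2 fell, and the median was -0.21, or -0.07 under quantile normalization. Ctss, the cathepsin of antigen-presenting cells, stood at 10.24, 10.38, 10.18 and 10.54 against 10.96, 10.89, 11.53 and 11.10 (0.78, adjusted p 0.0087), and Ctsk differed by 0.69 (adjusted p 0.013). The falls were Glb1, the lysosomal beta-galactosidase, from 14.07, 13.69, 13.94 and 13.51 to 12.90, 13.20, 12.83 and 13.18 (-0.77, adjusted p 0.024), and Ppt1, a thioesterase (-0.48, adjusted p 0.049). Of the 8 fits without 1 array, Ctss passed in 8, Ctsk in 6, Glb1 in 4 and Ppt1 in 0. Each of the 8 arrays ended at least 1 of these calls when left out (adjusted p up to 0.14). The list of 23 autophagy genes gave 0 rises and 0 falls, with differences between -0.33 and 0.47 and a median of -0.04 that turned to 0.04 under quantile normalization.

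Of the protein synthesis genes, 3 of 49 cytosolic ribosomal proteins rose and 0 fell, 6.12% called against 6.16% of all genes. Rplp0, often used as a reference gene, stood at 9.62, 9.64, 9.54 and 9.81 on control and 10.80, 10.36, 10.47 and 10.15 on Fh1-/- arrays (0.79, adjusted p 0.012), and Rpl22 and Rps15 differed by 0.58 and 0.40. Eif4ebp1, the inhibitor of cap-dependent translation and a target of Atf4, went from 11.16, 11.19, 11.22 and 12.21 to 13.25, 12.75, 13.05 and 12.36 (1.41, SE 0.24, adjusted p 0.0061), with control replicate 4 highest of its group. It was the 1 rise among 42 genes of ribosome biogenesis and initiation, where Tsr1 was the 1 fall (-0.53, with a second probe at 0.24). Rplp0 and Eif4ebp1 passed in 8 of the 8 fits that left out 1 array, Tsr1 in 3 and Rpl22 and Rps15 in 2. At least 1 call ended without Fh1-/- replicate 1, 2, 3 or 4 or control replicate 1, 2 or 3 (adjusted p up to 0.15). The ribosomal protein list held 1 to 5 rises, with 5 without control replicate 4. Of 33 Bcl2 family and cell death genes 0 rose and 1 fell, Bik (-0.45, adjusted p 0.027), which passed in 3 of the 8 fits.

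**Figure D5:**
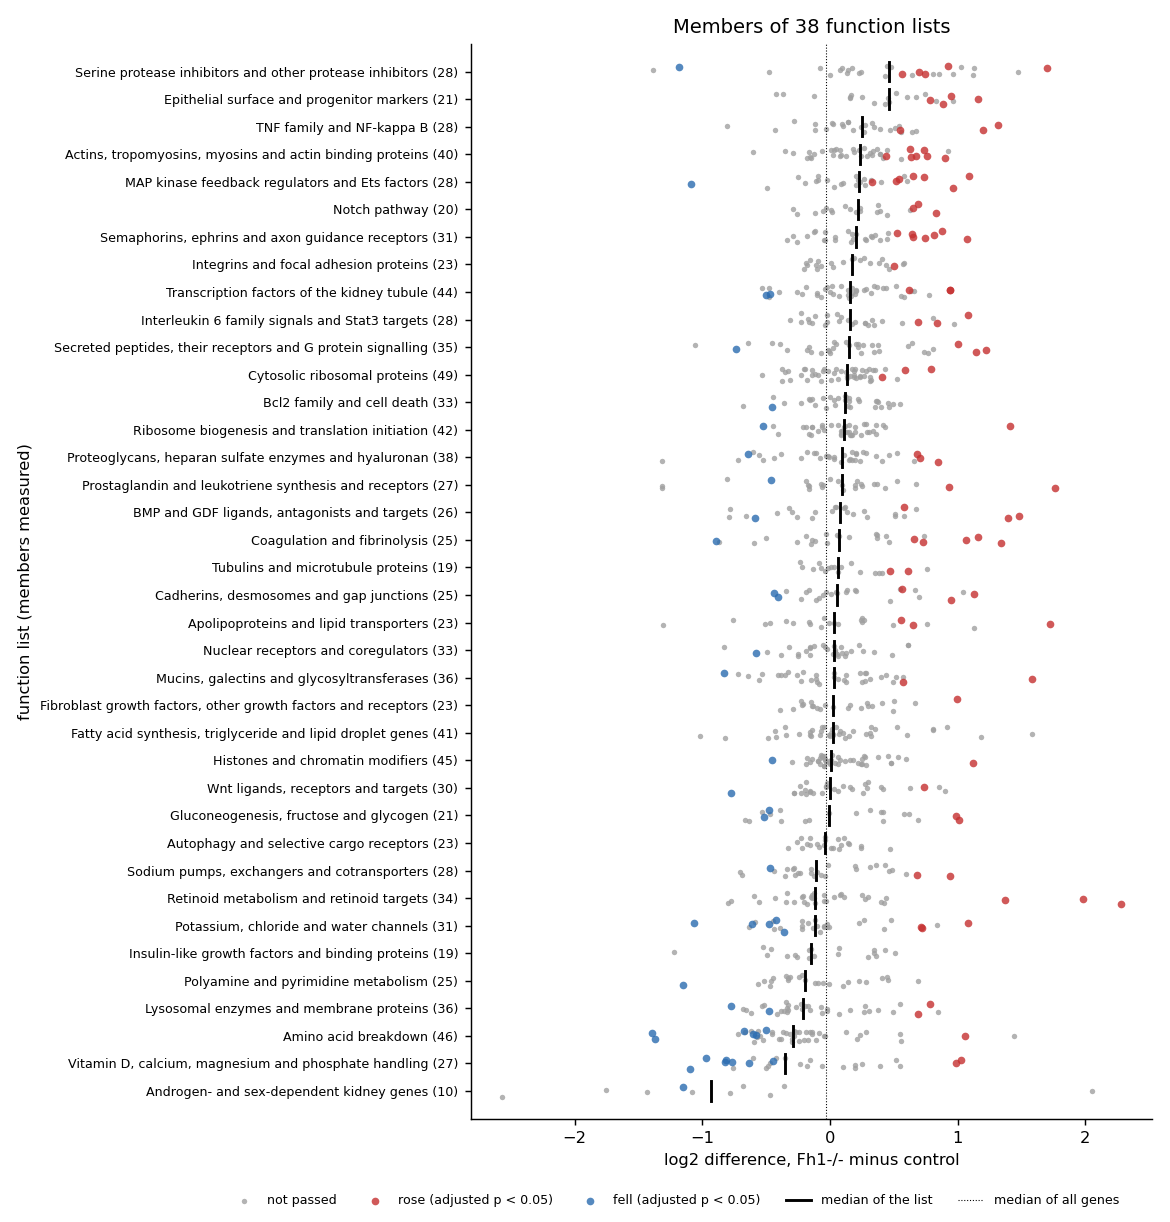
The log2 difference of every measured member of 38 of the 39 function lists (horizontal axis, 1 point per gene) is shown by list (rows, with the number measured), with red and blue points for rises and falls at an adjusted p under 0.05, a bar for the list median and a dotted line at the median of all genes. Mineral handling holds 7 blue points and 2 red ones, guidance molecules hold 7 red ones, and autophagy and insulin-like growth factors hold none.

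The 10 androgen- and sex-dependent kidney genes measured had the lowest median of all function lists, -0.93, yet 1 passed, Odc1. Slco1a1, an organic anion transporter that depends on androgen, stood at 12.23, 11.30, 11.997 and 7.59 on control replicates 1 to 4 and at 7.22, 8.41, 7.22 and 9.99 on Fh1-/- replicates 1 to 4 (-2.57, adjusted p 0.13). Slc7a12, an amino acid transporter higher in females, stood at 7.83, 10.27, 9.22 and 14.09 against 13.15, 11.66, 13.20 and 11.59 (2.05, adjusted p 0.26). Cyp7b1, an oxysterol hydroxylase, stood at 15.03, 14.63, 15.14 and 9.82 against 10.67, 13.24, 10.34 and 14.62 (-1.44, adjusted p 0.55). Control replicate 4 and Fh1-/- replicates 1 and 3, the arrays with bright Xist, held the 3 highest values of Slc7a12 and the 3 lowest of Slco1a1 and Cyp7b1. Among the 5 arrays with low Xist, Slco1a1 was still lower on the 2 Fh1-/- arrays (8.41 and 9.99) than on the 3 control arrays. With Xist as a covariate the median was -0.53, with 1 fall, and without control replicate 4 the list held 1 rise and 3 falls. Of the 3 arrays with bright Xist 2 are Fh1-/- and 1 is control, and the change of the list's median with the covariate is given without a test.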

How the data were processed

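Kidney RNA of 4 Fh1-/- and 4 control mice was measured on Illumina MouseWG-6 v2 arrays after extraction with MirVana and labelling with MessageAmp. The authors extracted signals with GenomeStudio V2010.1 and normalized them in GeneSpring GX 11.0.2, and the deposited table holds 1 normalized log2 signal per array for 23863 probes. The raw table lists 45281 probes, and the rule by which the smaller set was selected is not given in the sources used here. The second deposited table, of raw signals, was set aside because its 24 columns of per-sample values match no sample by name. Signal over background is therefore unknown, and precision is limited by having 4 arrays per group.

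The 75th percentile of every array was brought to the same value. All 12 arrays of the 3 groups were fitted together in limma 3.58.1 (R 4.3.3), with lmFit and then eBayes, which allowed the variance to depend on signal, so that the spread was shared, and the contrast was Fh1-/- minus control. Adjustment of p-values (Benjamini-Hochberg) was made across every probe of the table. Genes and list members were called at an adjusted p under 0.05, and counts of probes or genes also at a fold of at least 2. Single genes also had a two-sided exact permutation test, whose arrangements number 70. The samples are labelled as separate replicates, and p-values measure the spread between these arrays.

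Symbols came from the platform annotation (19906 probes with 1 symbol, 9 with several, 3948 with none, and 19880 of the first found in the reference table of mouse genes). A gene was its probe of highest mean signal, which gave 12344 genes. Of the 171 genes chosen by the rule below, 71 have other probes. Of these 112 probes 46 passed in the same direction, 10 pointed the other way and 0 passed the other way.

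The genes named by rule came first from genes past the 2-fold call whose groups did not overlap. From these the 25 largest rises, 20 largest falls and 12 largest moderated t values were taken. Up to 5 called members of each function list by size, Fh1 and called markers were added. The result of 1 function list is not reported here. Other genes with values (Kl, Amn, Cnnm2, Plxnd1, Plxna2, Vdr, Slc34a1, Xist, sex-dependent genes and members that did not pass) were named after their values were seen. The comparison, the members and the lists, written from general knowledge, were chosen with earlier results of these data known. Promoter sequences are from RefSeq (GRCm38.p6). The fit was tested on simulated data. Alternatives were other normalizations, variance models, array weights (statmod 1.5.0), blocks, covariates, thresholds, probes and leaving out each array. Leaving out each array of the group lacking both Fh1 and Hif1a, and the array set block together with Xist, were added after seeing the data. Plots were drawn with matplotlib 3.10.9.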

Additional observations from a re-analysis of the deposited data

Results flagged for a closer look

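Among 342 groups of 4 arrays (171 genes in control and in Fh1-/- kidneys), 18 held 1 array that stood apart by Dixon's test, and chance gives about 1 in 20. Control replicate 4 accounted for 6 of the 18. It was high in Gsta4 (12.24, others 10.27 to 10.56), Chac1 (8.95, others 8.21 to 8.33), Eif4ebp1 (12.21, others 11.16 to 11.22), Irx5 (9.46, others 8.94 to 9.02) and Atp6v1g3 (8.88, others 8.39 to 8.47), and low in Etv1 (10.87, others 11.63 to 11.66). Of the 5 genes that were high there all rose in Fh1-/- kidneys, and Etv1 fell, so this array lay on the Fh1-/- side in each. It is also the only control array with bright Xist. In Gsta4, Chac1, Eif4ebp1 and Etv1 the Fh1-/- arrays with bright Xist, replicates 1 and 3, lay farther from the controls than replicates 2 and 4. The part of Xist in these values was not tested.

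Control replicate 3 stood low in Slc5a2 (12.60), Ppt1 (10.79), Cd44 (8.06), Serpina3n (7.23) and Ptgr2 (10.64). Control replicate 2 stood low in Ugt2b35 (7.11) and Hgd (14.81) and high in Sema7a (8.84). Among Fh1-/- arrays, replicate 2 was nearest to control in Cdkn1a (11.10, others 11.96 to 12.03), Tmem86a (11.67, others 10.99 to 11.07) and Ppara (8.87, others 8.20 to 8.31), and replicate 4 was lowest in Aldh1a1 (11.01, others 11.30 to 11.35).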

How the results depend on the processing

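The number of probes past an adjusted p of 0.05 and a fold of 2 was 220 higher and 56 lower, and 5118 probes had an unadjusted p under 0.05. Within replicates 3 and 4 alone, 36 were higher and 20 lower. In the other settings that kept the fold minimum the higher count ranged from 160 (1 probe per gene, with 38 lower) to 300 (array weights), with 161 at an adjusted p under 0.01. Without the fold minimum 726 were higher and 461 lower. Lower counts moved to 31 with a plain test without moderation, to 131 with array weights and to 24 at an adjusted p under 0.01. Array weights ranged from 0.47 for control replicate 4 to 2.51 for control replicate 1, and gave 300 higher. Leaving out each array in turn gave 165 to 286 higher and 32 to 121 lower. The lower count was 33 without Fh1-/- replicate 1, 32 without Fh1-/- replicate 3, 34 without control replicate 1 and 121 without control replicate 4. With Xist as a covariate 195 were higher and 68 lower, with the array set as a block 222 and 60, and with both, a setting chosen after seeing the data, 205 and 71. Xist was bright on more Fh1-/- than control arrays. In Kl, Dao, Glb1 and Aspdh, chosen after their values were seen, the bright arrays were the lowest of their group. In Slc34a3 the bright control array was the highest control. The part of Xist in these genes was not tested.

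The samples share replicate numbers, and the deviations of same-numbered Fh1-/- and control arrays correlated at -0.07, 0.50, -0.13 and -0.31. Fh1-/- replicate 4 and control replicate 3 correlated at 0.53. The numbers were not used as pairs in the main fit. The labels name no litters, so these values cannot tell whether arrays are paired by litter. With the replicate block 211 probes were higher and 45 lower. Under the next-brightest probe Dao (0.76), Tubb5 (-0.14), Elf4 (-0.19) and Tsr1 (0.24) turned direction without passing, and the cause was not tested. Of the 170 called genes named by rule, 57 no longer passed with a plain test without moderation, 25 in a fit of only the 2 groups, 18 with the replicate block, 13 under quantile normalization, 8 without a variance trend, 7 as deposited without the shift, 7 with equal medians and 5 with Xist as a covariate (Flna, Osmr, Ppt1, Rnd3 and Scarb1, adjusted p 0.050 to 0.060), and 92 did not reach an adjusted p under 0.01. Within replicates 1 and 2 alone 117 and within replicates 3 and 4 alone 141 did not pass. Of the 170 genes 90 passed in each of the 8 fits without 1 array.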

Other observations

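Several genes of large difference did not pass and had control replicate 4 on the side of the Fh1-/- arrays. They were chosen after their values were seen and are given as values. Ugt1a2, a glucuronosyltransferase, stood at 8.45, 8.18, 7.86 and 14.27 on control replicates 1 to 4 and at 14.12, 11.09, 13.98 and 10.31 on Fh1-/- replicates 1 to 4 (2.69, adjusted p 0.30). Ugt1a5, of the same gene cluster with shared exons, stood at 8.05, 7.93, 7.89 and 13.60 against 13.49, 10.22, 13.34 and 9.92. Cbr1, a carbonyl reductase, stood at 11.05, 11.43, 11.25 and 14.27 against 14.31, 12.97, 14.30 and 12.70 (1.57, adjusted p 0.16), and Abcc3, an exporter of conjugates, at 7.97, 8.12, 7.99 and 12.01 against 11.46, 9.25, 11.73 and 8.96. Arg2, the mitochondrial arginase, stood at 9.03, 9.20, 9.27 and 11.99 against 11.81, 10.68, 11.61 and 11.02 (1.41, adjusted p 0.15), and Kynu, kynureninase, at 9.57, 10.61, 9.04 and 12.08 against 11.95, 11.86, 11.79 and 11.46 (1.44, adjusted p 0.10). In each of these genes control replicates 1 to 3 lay below every Fh1-/- array, and control replicate 4 lay above at least 2 of them. This array also has bright Xist, as do Fh1-/- replicates 1 and 3, and its part in these values was not tested.

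Cyp4a14, a fatty acid hydroxylase, had a large called rise but was left out of the ranking because its groups overlap, with 10.10, 10.53, 9.85 and 14.43 on control and 15.03, 13.98, 15.01 and 13.67 on Fh1-/- arrays (3.19, adjusted p 0.041). Igf2, an insulin-like growth factor, stood at 14.81 on control replicate 4 and between 8.96 and 9.54 on the other 7 arrays. Angptl7, a secreted angiopoietin-like protein, stood at 15.32 on control replicate 3 and 13.94 on Fh1-/- replicate 4, and at 10.93 or below on the rest. Fat-associated genes were bright on Fh1-/- replicates 2 and 4, with Adipoq at 11.61 and 10.82 and Cidea at 9.94 and 11.64, against at most 9.45 and 8.69 on the other 6 arrays.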
